A study of Arabidopsis thaliana with 24 samples.

Results

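The SAUR genes (SMALL AUXIN UP RNA) are a plant family of short, uninterrupted genes, many of them in tandem clusters. The members described here are 45 Arabidopsis thaliana SAUR loci among the 33020 loci of the authors' expression table, taken as a list of locus identifiers with no threshold on a measured value, though the list was drawn up with earlier results of these data known; 35 other loci annotated as SAUR are not on it. Of these, 30 lie in 6 clusters named by locus number: 6 in AT5G180xx (SAUR19 to SAUR24), 4 in AT3G038xx (SAUR26 to SAUR29), 7 in AT1G294xx-295xx (SAUR61 to SAUR66 and SAUR68), 6 in AT4G347xx-348xx (SAUR50 and SAUR1 to SAUR5), 4 in AT4G388xx (SAUR13 to SAUR16) and 3 in AT2G212xx (SAUR6, SAUR7 and SAUR12). The other 15 stand alone. RNA sequencing was done on whole seedlings, 6 days old, of wild type Col-0 (WT) and of the mutants pif7, asf1ab and hira, all grown in white light. Each genotype was either left in white light or shaded for 1 hr (red to far-red ratio 0.4). Each of the 8 groups has 3 libraries, 24 in all. The labels give no allele names and do not state if a group's libraries came from separate cultures, so p-values measure the spread between these samples only.

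SAUR messages are short-lived and accumulate within minutes of auxin treatment. The best studied SAUR proteins bind and inhibit type 2C protein phosphatases of the D group (PP2C.D), which otherwise remove the activating phosphate from plasma membrane proton pumps; active pumps acidify the cell wall, and cells elongate. Shade lowers the activity of phytochrome B, which frees PIF7, a bHLH transcription factor, to act on auxin synthesis genes and other targets, and the seedling stem elongates. ASF1 and HIRA are histone chaperones that carry H3-H4 dimers to chromatin. The comparisons ask which SAUR genes respond to shade and how far their responses depend on PIF7 and on the chaperones.

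Summed FPKM (fragments per kilobase of transcript, scaled to sequencing depth) ran from 778266 to 893997 per library, and 18427 to 19298 loci reached 1 FPKM. A rough reading of depth from the steps between low FPKM values put the libraries between 13.4 and 17.7 (in units of 1e6 reads). At their median of 15.7, 1 FPKM of a member would be worth 6.7 to 22.0 reads. Only 25.9 to 34.1% of those low values lay within 0.1 of a whole read. Values without steps would in part lie that close too, and each depth was the best fit of many tried. The reading is therefore weak, and depth is not established. PIF7 was at 27.4 ± 2.29 FPKM in white-light WT and 1.11 ± 0.522 in pif7, and ASF1B at 9.50 ± 1.28 and 1.87 ± 0.194 in asf1ab (mean ± SD, n = 3). ASF1A (AT1G66740, listed as SGA2) and HIRA were only slightly lower in their mutants, at 12.9 against 9.56 and at 4.88 against 3.91 FPKM, so these transcripts check the labels weakly. Green-tissue genes were high in all groups and the root genes SCR and SHR were present, while the root and shoot stem cell genes PLT1, WOX5, WUS and CLV3 stayed under 1 FPKM in every group mean. Some markers moved with shade. Of 3 green-tissue genes CAB1 rose in WT (0.73 ± 0.228 log2) and none fell, whereas LHCB3 and RBCS1A fell in pif7 (-1.16 ± 0.246 and -0.55 ± 0.112). As signed values, the responses of LHCB3 and CAB1 were lower in pif7 than in WT (-1.75 ± 0.348 and -1.17 ± 0.322). In hira LHCB3 fell by -0.73 ± 0.246. Of 2 guard cell genes KAT1 rose in WT (1.89 ± 0.115), asf1ab and hira but was not called in pif7 (difference from WT -2.13 ± 0.163), and MYB60 fell in WT (-0.31 ± 0.0928), asf1ab and hira. SCR fell in all 4 genotypes (-0.62 to -0.22), SHR was not called in any, and the meristem gene STM rose in pif7 (0.52 ± 0.115). Markers also differed between genotypes. Against WT, asf1ab was lower in STM (-0.95 in white light, -0.80 in shade), SHR (-0.53 and -0.47) and KAT1 (-0.36 and -0.72). SCR was higher in white-light asf1ab (0.33) and LHCB3 in white-light hira (0.88). In shaded pif7 KAT1 (-1.92), LHCB3 (-1.40) and CAB1 (-0.89) were lower. No other difference of these markers from WT was called. The part of these cell types in the SAUR results was not tested. Ribosomal RNA took 6.27 ± 2.70% of summed FPKM in hira kept in white light, where WT had 2.11 ± 0.608%, and plastid transcripts 2.30 ± 0.802% against 0.874 ± 0.0282%; replicates 1 and 2 of white-light hira were the highest.

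All 45 members have an uninterrupted coding sequence, against 22.3% of the nuclear coding genes, and the median coding length is 327 bases, from 261 in SAUR7 to 561 in SAUR65. Copies within a cluster are alike to different degrees. Coding identity of pairs was 87.7 to 95.2% in AT5G180xx, 77.7 to 86.3% in AT3G038xx and 61.2 to 89.4% in AT1G294xx-295xx, and 40.2 to 69.0% in the other 3 clusters. The most alike pair of one cluster, SAUR19 (chr5:5963033-5963305, minus strand, TAIR10.1) and SAUR24 (chr5:5983840-5984112, plus strand), is printed to show how much sequence separates tandem copies. Each coding sequence has 273 bases, read from the RefSeq TAIR10.1 genome, and capitals mark the 13 bases that differ:
SAUR19: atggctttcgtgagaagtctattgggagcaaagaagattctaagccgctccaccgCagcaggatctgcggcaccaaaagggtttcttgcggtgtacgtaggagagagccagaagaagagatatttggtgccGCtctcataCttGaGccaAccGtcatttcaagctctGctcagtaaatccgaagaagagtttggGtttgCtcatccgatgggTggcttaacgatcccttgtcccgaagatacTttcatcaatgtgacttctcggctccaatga
SAUR24: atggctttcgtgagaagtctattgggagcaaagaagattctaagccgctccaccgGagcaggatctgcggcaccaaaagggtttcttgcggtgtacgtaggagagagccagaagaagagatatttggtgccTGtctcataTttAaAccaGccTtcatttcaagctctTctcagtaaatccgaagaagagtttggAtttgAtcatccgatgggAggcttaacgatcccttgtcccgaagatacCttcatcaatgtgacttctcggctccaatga

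Exact repeats were rarer than this likeness. Stretches of 50 exonic bases found elsewhere in the genome, in exons or not, occurred in 11 of the 42 members searched. Most were in SAUR68 (33.9% of its windows), SAUR75 (30.0%), SAUR63 (27.1%), SAUR62 (23.2%) and SAUR19 (18.5%). SAUR8, SAUR20 and SAUR64 were not searched. SAUR62 and SAUR75, on chromosomes 1 and 5, share 97.0% of their coding bases. By these repeats or by coding likeness, values of SAUR19 to SAUR24, and of SAUR62, SAUR63, SAUR68 and SAUR75, are uncertain as to which copy the reads came from. Some members also overlap another gene, and use of strand in the counting was not stated in the labels: SAUR13 overlaps AT4G38820 over 433 of its 485 bases, SAUR61 overlaps AT1G06257, and SAUR6 and SAUR7 share 176 bases on one strand. On opposite strands SAUR63 overlaps AT1G29435 over all its 602 bases, SAUR31 AT4G00883 over 516 and SAUR8 AT2G16575 over 594. AT1G29435 and AT4G00883 were listed at 0 in every library, where white-light WT had means of 36.3 FPKM for SAUR63 and 28.3 for SAUR31. How overlapping reads were assigned was not tested.

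The windows before the gene starts were read because PIF proteins bind the G-box (CACGTG) and the PBE-box (CACATG, or CATGTG on the other strand), and auxin response factors bind TGTCTC and TGTCGG. In windows from 250 bases before to 50 after the annotated start, searched on both strands, 27 of 45 members (60.0%) held CACATG, against 13.2% of 32546 genes. None of the 45 held CACGTG, which 7.11% of all genes hold. TGTCTC was found in 17.8% of members and 14.3% of all genes, TGTCGG in 4.44 and 5.04%, and the TATA letters TATAAA in 51.1 and 50.6%. The PBE-box letters stood in all 7 members of AT1G294xx-295xx, all 4 of AT3G038xx, 4 of 6 in AT4G347xx-348xx, 3 of 4 in AT4G388xx, 3 of 6 in AT5G180xx, 1 of 3 in AT2G212xx and 5 of the 15 single genes. In windows of 1000 bases before the start, 77.8% of members and 37.9% of all genes held CACATG, and 8.89 and 14.1% held CACGTG. Tandem copies share upstream sequence by descent, so members are not independent counts, and a match is a description of letters.

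The 250 bases before the start are printed for 5 members whose values differ most in kind: SAUR22, with the largest change in WT, SAUR63, the highest member in shaded WT, SAUR10 and SAUR9, single genes whose shade levels were lower in every mutant, and SAUR78, a single gene whose response was kept in pif7. Capitals mark the letters listed above. The RefSeq TAIR10.1 windows are chr5:5975088-5975337 (minus) for SAUR22, chr1:10305109-10305358 (minus) for SAUR63, chr2:7833532-7833781 (plus) for SAUR10, chr4:17089684-17089933 (plus) for SAUR9 and chr1:27265807-27266056 (minus) for SAUR78:
SAUR22: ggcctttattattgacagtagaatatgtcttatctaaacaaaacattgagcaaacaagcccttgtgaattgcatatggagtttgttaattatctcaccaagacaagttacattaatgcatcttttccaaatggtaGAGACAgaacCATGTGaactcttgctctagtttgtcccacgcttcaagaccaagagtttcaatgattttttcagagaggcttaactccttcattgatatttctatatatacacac
SAUR63: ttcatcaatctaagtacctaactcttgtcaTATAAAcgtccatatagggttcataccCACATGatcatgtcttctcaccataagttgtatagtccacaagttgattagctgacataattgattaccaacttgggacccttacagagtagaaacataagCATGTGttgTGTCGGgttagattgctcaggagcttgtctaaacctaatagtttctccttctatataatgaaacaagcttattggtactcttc
SAUR10: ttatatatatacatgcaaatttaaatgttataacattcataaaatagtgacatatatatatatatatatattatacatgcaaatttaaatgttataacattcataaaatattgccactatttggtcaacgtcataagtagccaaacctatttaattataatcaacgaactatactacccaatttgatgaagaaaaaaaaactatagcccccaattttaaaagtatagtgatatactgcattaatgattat
SAUR9: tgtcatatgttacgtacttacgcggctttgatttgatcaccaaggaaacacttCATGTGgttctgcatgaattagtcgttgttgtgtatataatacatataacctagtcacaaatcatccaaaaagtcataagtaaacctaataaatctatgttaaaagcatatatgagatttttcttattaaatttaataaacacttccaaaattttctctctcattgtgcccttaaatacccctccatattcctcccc
SAUR78: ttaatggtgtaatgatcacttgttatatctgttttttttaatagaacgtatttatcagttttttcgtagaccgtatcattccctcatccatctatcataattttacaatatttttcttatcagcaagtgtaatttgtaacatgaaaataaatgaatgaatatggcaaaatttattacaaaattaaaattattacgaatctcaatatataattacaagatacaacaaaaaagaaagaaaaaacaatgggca
In SAUR22 an auxin element begins 115 bases before the start and a PBE-box 105 bases before it. SAUR63 has PBE-box letters at 193 and 92 bases and TGTCGG at 83 bases before its start, and SAUR9 has PBE-box letters at 197. SAUR10 and SAUR78 hold none of the letters searched in these windows.

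Tests were run with limma on log2(FPKM + 1) over the 19126 loci with a mean of at least 1 FPKM, and a change was called at a Benjamini-Hochberg adjusted p below 0.05. Folds are on that scale and understate the change of genes near 0. Of the 45 members 38 were tested, and 7 fell under the minimum. In whole seedlings, fewer cells of a type and less RNA per cell cannot be told apart.

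In WT, most of the tested members were higher after the hour of shade, and every member of the 3 clusters of close copies rose. Of 16 tested SAUR genes not on the list 4 rose and 3 fell, beside 14.9 and 11.4% of all loci, with a median of 0.06 log2 units. One of the 4, AT1G29490 inside AT1G294xx-295xx, rose by 2.93. The list was drawn up with earlier results of these data known, so setting listed against unlisted genes is no test. Of 38 tested members 27 rose and 1 fell, while 14.9% of all tested loci rose and 11.4% fell. The median change of the tested members was 1.69 log2 units, against 0.0082 for all loci. Risen were all 6 members of AT5G180xx (2.67 to 4.42), all 4 of AT3G038xx (2.38 to 3.78) and all 7 of AT1G294xx-295xx (1.44 to 2.48). The other clusters were mixed, with 3 of 5 tested members risen in AT4G347xx-348xx, 3 of 4 in AT4G388xx and 1 of 3 in AT2G212xx. Of the 9 single genes tested, SAUR9, SAUR10 and SAUR78 rose and SAUR31 fell.

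**Figure D1:**
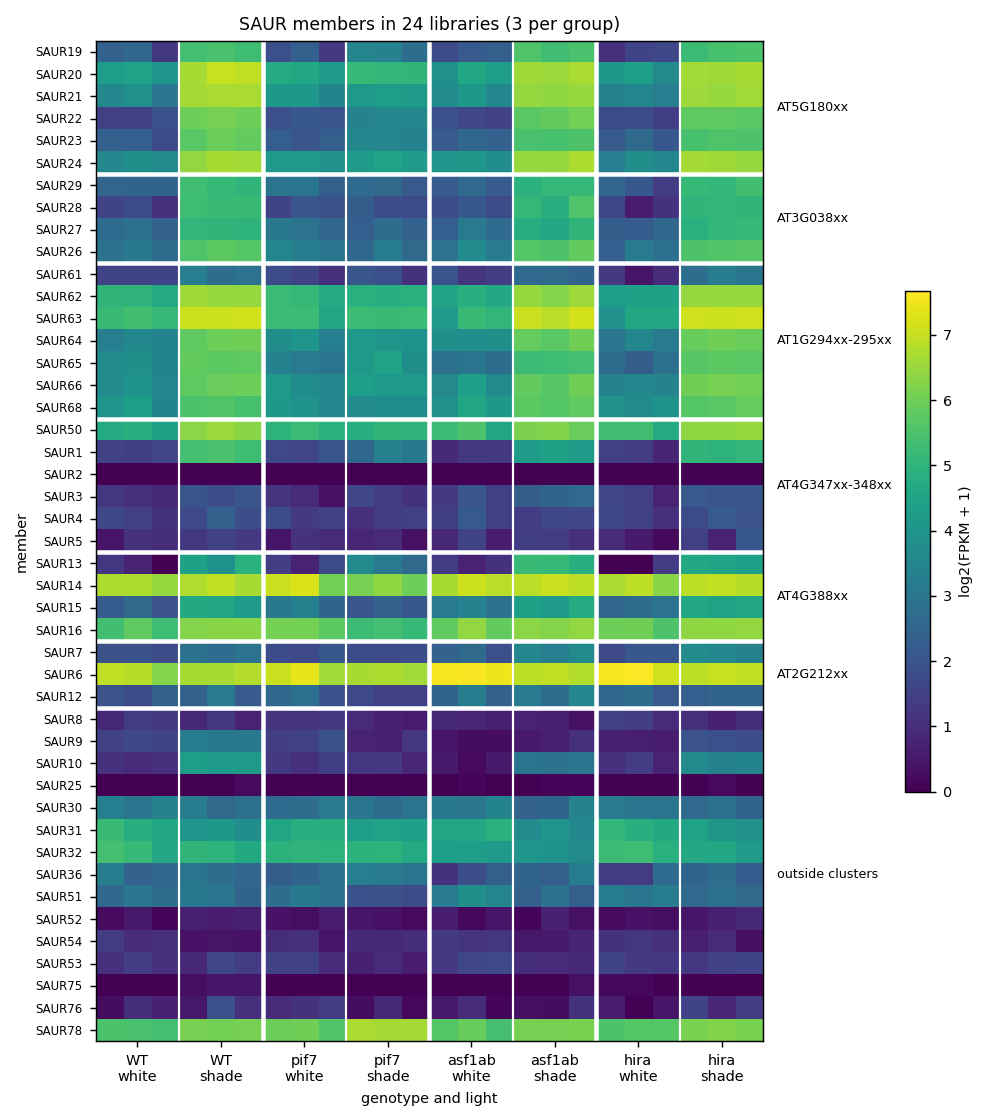
Level of each of the 45 members (rows, grouped by cluster) in each of the 24 libraries (columns, 3 per group), as log2(FPKM + 1) in colour. The shaded WT, asf1ab and hira columns are brighter than white light through AT5G180xx, AT3G038xx and AT1G294xx-295xx, the shaded pif7 columns much less so, and SAUR2 is at 0 in every library.

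In AT5G180xx, whose members promote hypocotyl cell expansion, SAUR22 (AT5G18050) read 1.76, 1.73 and 2.84 FPKM in the white-light WT libraries and 62.5, 68.5 and 62.9 in shade (4.42 ± 0.128 log2, SE, adjusted p = 7.41e-15). It was the lowest member of its cluster in white light, and in shade lay within the range of its neighbours. SAUR20 (AT5G18020), the most abundant of the cluster, read 18.6, 20.4 and 14.6 FPKM in white light and 102, 131 and 122 in shade (2.67 ± 0.183, adjusted p = 1.61e-09). Summed over the 6 copies, whose exon lengths run from 495 (SAUR20) to 839 bases (SAUR21) so that the sum still depends in part on how reads were divided, the cluster went from 49.2 ± 9.09 to 476 ± 32.5 FPKM (mean ± SD, n = 3), with no overlap between the groups.

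AT3G038xx holds the SAUR26 group, known for natural variation in growth at warm temperature. SAUR28 (AT3G03830) read 1.97, 2.30 and 1.08 FPKM in white light and 38, 35.99 and 35.43 in shade (3.78 ± 0.231, adjusted p = 3.05e-10). SAUR26, the most abundant, read 6.31, 7.44 and 5.51 and then 46.7, 52.4 and 49.2 (2.77 ± 0.215, adjusted p = 8.63e-09). The shaded libraries of both genes lay above all white-light ones, and the cluster sum went from 18.1 ± 2.36 to 152 ± 5.29 FPKM.

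In AT1G294xx-295xx, whose SAUR63 group promotes elongation of hypocotyls and stamen filaments, levels in white light were already higher. SAUR63 (AT1G29440), the highest of all members in shaded WT, read 35.6, 39.6 and 33.6 FPKM in white light and 136, 135 and 142 in shade (1.90 ± 0.224, adjusted p = 2.54e-06). SAUR64 had the largest change of the 7 listed members, from 8.80, 10.9 and 10.2 to 55.3, 61.7 and 63.4 FPKM (2.48 ± 0.141, adjusted p = 1.02e-10). The sum of the 7 members went from 115 ± 13.7 to 452 ± 5.81 FPKM.

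The remaining clusters held risen members beside members that were not called. In AT4G347xx-348xx SAUR1 (AT4G34770) read 1.82, 1.71 and 2.01 FPKM in white light and 40.8, 43.1 and 38.1 in shade (3.87 ± 0.177, adjusted p = 4.15e-12). SAUR50, a light-responsive gene of cotyledons and hypocotyls, rose from 24.7, 27.3 and 19.5 to 80.6, 90.5 and 78.1 FPKM (1.77 ± 0.196, adjusted p = 1.08e-06). Their neighbour SAUR3 rose by 0.91 ± 0.230, SAUR4 and SAUR5 changed by 0.57 and 0.50 and were not called, and SAUR2 was listed at 0 in every library of every group.

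In AT4G388xx SAUR14, another light-responsive gene, was abundant in both lights, at 105, 106 and 87.7 FPKM in white light and 109, 121 and 101 in shade (0.15 ± 0.220, adjusted p = 0.684). SAUR13, next to it, read 1.30, 0.71 and 0 FPKM in white light and 19.8, 14.5 and 29.2 in shade (3.76 ± 0.368, adjusted p = 2.10e-07). The gene that overlaps SAUR13 on the other strand, AT4G38820, rose by 3.81 ± 0.569, and the 2 cannot be told apart without strand. SAUR15, the long-known auxin marker SAUR-AC1, rose by 2.19 ± 0.211 and SAUR16 by 0.80 ± 0.157.

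In AT2G212xx SAUR6 was among the highest members in white light, at 123, 115 and 75.7 FPKM, and read 102, 101 and 112 in shade (0.03 ± 0.174, adjusted p = 0.915). SAUR7, which overlaps SAUR6, was some way lower, at 2.78, 2.72 and 2.47 FPKM, and rose to 6.22, 5.44 and 6.57 (0.95 ± 0.161, adjusted p = 0.000167). SAUR12 changed by 0.54 ± 0.280 and was not called.

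Among the single genes SAUR10 (AT2G18010), which promotes stem elongation, had the largest change, from 1.14, 0.91 and 1.10 FPKM in white light to 18.7, 16.9 and 17.1 in shade (3.18 ± 0.153, adjusted p = 9.35e-12). SAUR78 (AT1G72430), the most abundant single gene and one linked to ethylene signalling, rose from 44.7, 43.8 and 40.8 to 67.6, 66.6 and 67.1 FPKM (0.63 ± 0.103, adjusted p = 0.000113). SAUR31 (AT4G00880) was the only tested member that fell, from 35.1, 26.8 and 22.9 to 15.05, 16.01 and 12.72 FPKM (-0.89 ± 0.164, adjusted p = 0.000377). Its shaded libraries all lay under the white-light ones. SAUR30, SAUR32, SAUR36, SAUR51 and SAUR53 changed by -0.31 to 0.13 and were not called.

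Over all 45 members, tested or not, the 3 shaded WT libraries lay wholly above the 3 white-light ones in 31 and wholly below in 2, against 22.0 and 19.0% of the tested loci. Summed over the 45 members, WT went from 603 ± 84.0 to 1718 ± 42.4 FPKM. White-light WT replicate 3 was the lowest of its group in that sum, at 507 FPKM against 644 and 659.

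**Figure D2:**
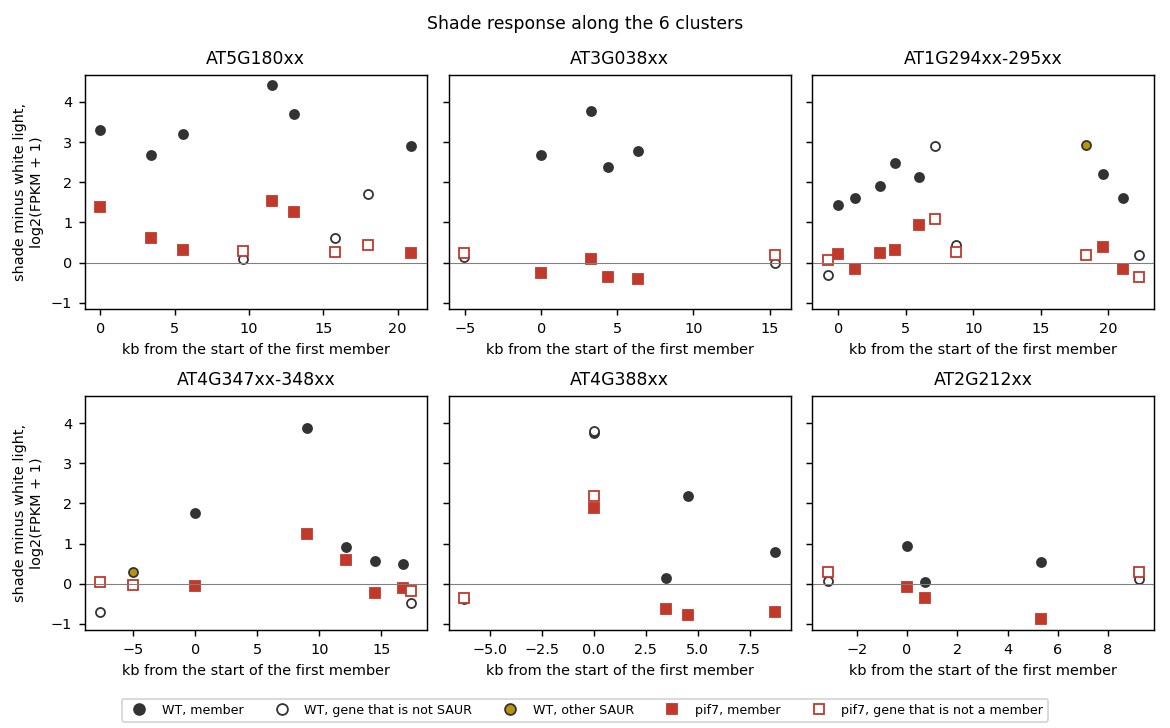
Shade response (log2 units, y axis) of tested genes along each of the 6 clusters (x axis, kb from the start of the first member), in WT (circles) and pif7 (squares); filled symbols are members, open symbols genes that are not members. In WT the members of AT5G180xx, AT3G038xx and AT1G294xx-295xx all lie at 1.44 or above, while the 9 tested genes on either side of the clusters, none of them beside AT5G180xx, lie between -0.70 and 0.18.

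Of 9 tested genes nearest to a cluster on either side, 0 rose and 2 fell in WT, counts near the 14.9 and 11.4% of all loci. The 2 were ASE2, by -0.70 ± 0.147, and MRL1, by -0.48 ± 0.0906, both beside AT4G347xx-348xx. By limma, 0 rose and 3 fell at an unadjusted p below 0.05, and the share of all loci at that threshold was not computed. No outer neighbour of AT5G180xx was tested. Inside the clusters lie 6 tested genes not annotated as SAUR, and 5 of them rose. DRT101 (AT5G18070), an enzyme gene between SAUR23 and SAUR24, rose by 1.71 ± 0.103, AT1G29465 by 2.91 ± 0.229, AT5G18065 by 0.60 ± 0.175 and AT1G29470 by 0.45 ± 0.108, beside AT4G38820 above. AT5G18040 changed by 0.10 and was not called. These genes were looked at after the members' values were known.

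In pif7 most of this response was missing. Of 38 tested members 9 rose and 7 fell with shade, where 29.9% of all tested loci rose and 13.6% fell (43.5% called in all), so the members' counts lay near the background. The median change of the tested members was -0.07 log2 units, and that of all loci 0.12. Scaling each library by the median of ratios removes this shift of all loci, and 7 members then rose and 8 fell. The difference between the genotypes was tested itself with limma. The response of pif7, as a signed value, was lower than that of WT in 26 of 38 tested members and higher in 0. Of all loci 2.98 and 3.13% were called so (6.10% together). Of the 26, 24 had risen in WT, while SAUR12 and SAUR51 were not called in WT and fell in pif7. At an unadjusted p below 0.05 limma gave 30 members lower and 1 higher, and the share of all loci at that threshold was not computed. Both comparisons of pif7 with WT use the same WT libraries.

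**Figure D3:**
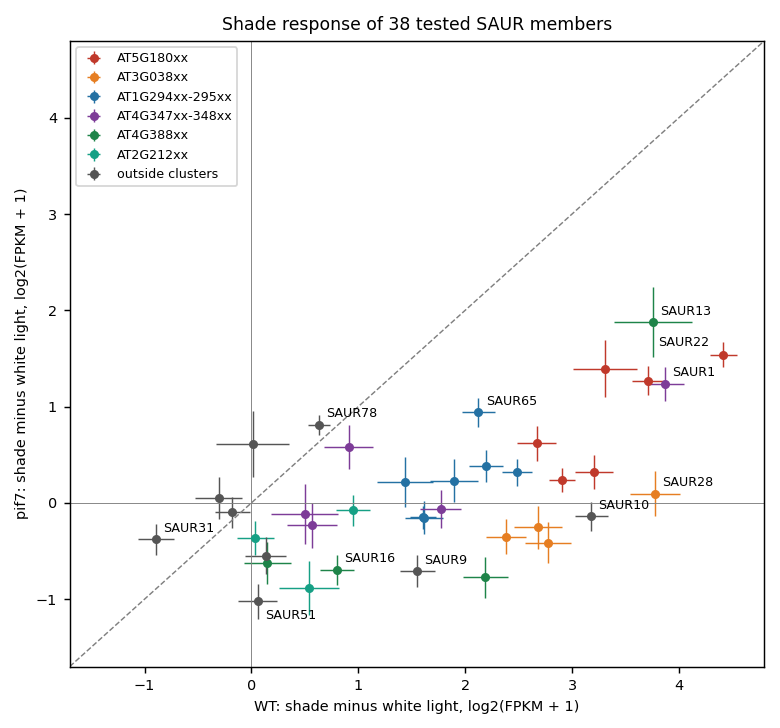
Shade response of each of the 38 tested members in WT (x axis) and pif7 (y axis), in log2(FPKM + 1) units, coloured by cluster; bars are standard errors and the dashed line marks equal response. All members of AT5G180xx, AT3G038xx and AT1G294xx-295xx lie under the line, SAUR22 at 4.42 and 1.54 and SAUR28 at 3.78 and 0.10, while SAUR78 lies at 0.63 and 0.81.

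The blocks were affected to different degrees. In AT3G038xx none of the 4 members was called in pif7 (-0.41 to 0.10). SAUR28 had the largest difference of all members: in pif7 it read 1.93, 3.03 and 2.74 FPKM in white light and 3.82, 2.38 and 2.31 in shade, so the groups overlapped, and the difference from the WT response was -3.68 ± 0.327 (adjusted p = 4.70e-07). SAUR26 read 10.52, 8.6 and 6.84 FPKM and then 5.09, 8.61 and 5.27. The cluster sum in pif7 was 23.4 ± 4.46 FPKM in white light and 18.6 ± 3.33 in shade.

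In AT5G180xx 4 of 6 members still rose in pif7, by less. SAUR22 went from 2.63, 3.22 and 2.99 to 9.65, 11.1 and 10.7 FPKM (1.54 ± 0.128, adjusted p = 3.82e-08), and the difference from WT was -2.88 ± 0.181 (adjusted p = 2.71e-09). SAUR19 rose by 1.39 ± 0.295, SAUR23 by 1.27 ± 0.151 and SAUR20 by 0.62 ± 0.183, from 25.2, 22.7 and 16.4 to 34.4, 32.9 and 31.7 FPKM. The SAUR20 call was lost without pif7 white-light replicate 3 (adjusted p = 0.0623) and after rescaling by the median of ratios (adjusted p = 0.0579). SAUR21 and SAUR24 changed by 0.32 and 0.23 and were not called. The sum of the 6 copies went from 60.7 ± 10.4 to 98.5 ± 5.59 FPKM.

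In AT1G294xx-295xx SAUR65 alone rose in pif7, by 0.94 ± 0.151 (adjusted p = 7.49e-05), and the other 6 lay between -0.15 and 0.38. SAUR63 read 37.6, 36.4 and 21.7 FPKM in white light and 37.1, 35.1 and 37.2 in shade. The cluster sum was 113 ± 24.8 FPKM in white light and 129 ± 4.84 in shade. The response differed from that of WT in 6 of the 7, and SAUR61 had a difference of -1.22 ± 0.366 that was not called (adjusted p = 0.0544).

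AT4G388xx and AT2G212xx held members that moved down in shaded pif7. SAUR15 fell from 7.44, 9.17 and 4.55 to 3.17, 4.37 and 3.26 FPKM (-0.77 ± 0.211, adjusted p = 0.0065), while in WT it rose. SAUR16 also fell, by -0.69 ± 0.157, against a rise of 0.80 in WT, and so did the single gene SAUR9, from 1.61, 1.78 and 2.76 to 0.67, 0.61 and 1.34 FPKM (-0.71 ± 0.164, adjusted p = 0.00209). SAUR51 fell by -1.02 ± 0.184, from 6.47 ± 1.02 to 2.66 ± 0.216 FPKM. SAUR12, SAUR14 and SAUR53 fell by -0.89 ± 0.280, -0.62 ± 0.220 and -0.55 ± 0.190, but with adjusted p up to 0.0802, 0.179 and 0.107 when single libraries were left out: pif7 white-light replicates 1 or 2 for all of them, and also shaded replicates 1 or 3 for SAUR14 and SAUR53. SAUR14, at 133, 150.5 and 64.5 FPKM in white light and 67.8, 83.1 and 62.0 in shade, overlapped between the groups.

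A few members kept a rise. SAUR13 rose in pif7 from 1.61, 0.65 and 2.33 to 11.9, 7.81 and 5.29 FPKM (1.88 ± 0.368, adjusted p = 0.000508), and SAUR1 from 2.21, 2.04 and 3.08 to 4.97, 9.21 and 7.58 (1.24 ± 0.177, adjusted p = 2.26e-05). SAUR78 rose from 61.5, 63.2 and 47.2 to 104, 99.7 and 98.3 FPKM (0.81 ± 0.103, adjusted p = 5.67e-06), with a difference from WT of 0.18 ± 0.145 that was not called. SAUR3 rose by 0.58 ± 0.230 (adjusted p = 0.0475), a call lost without pif7 white-light replicates 2 or 3 or shaded replicates 1 or 2 (adjusted p up to 0.236). SAUR10, in contrast, showed no rise, at 1.45, 1.06 and 1.69 FPKM in white light and 1.34, 1.43 and 0.78 in shade, a difference from WT of -3.32 ± 0.216 (adjusted p = 3.79e-09). SAUR31, which fell in WT, changed by -0.38 ± 0.164 in pif7 (adjusted p = 0.0686), from 22.2, 26.9 and 27.4 to 18.6, 20.2 and 19.1 FPKM.

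The differences from WT for SAUR12 (-1.43 ± 0.396), SAUR13 (-1.88 ± 0.520) and SAUR51 (-1.08 ± 0.260) were the least steady. Leaving out 1 library ended the SAUR12 call in 9 of 12 cases (adjusted p up to 0.104; the call held without WT white-light replicate 3, pif7 white-light replicate 3 or WT shaded replicate 3). It ended the SAUR13 call in 8 of 12 cases (adjusted p up to 0.0932; it held without WT white-light replicate 1, pif7 white-light replicate 2, WT shaded replicate 2 or pif7 shaded replicate 1) and the SAUR51 call in 4 (WT white-light replicate 1, pif7 white-light replicate 2, WT shaded replicates 1 and 2; adjusted p up to 0.0589).

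In white light pif7 and WT were compared in the same way. Of 38 tested members 0 were called either way, with 0.110% of all loci higher and 0.288% lower, 0.397% together. By limma, 6 members were higher and 1 lower at an unadjusted p below 0.05, and the share of all loci at that threshold was not computed. The count of 0 is at the background share, and the member median was 0.13 log2 units against -0.02 for all loci. Leaving out white-light pif7 replicate 3, the lowest of its group in that sum of members at 548 FPKM against 749 and 802, gave 1 member called. In shade, 28 of 38 tested members were lower in pif7 than in WT and 1 was higher, with 6.31% of all loci lower and 10.2% higher. The one higher was SAUR78 (0.58 ± 0.103, adjusted p = 0.00105). The differences of SAUR4 (-0.71 ± 0.232, adjusted p = 0.0429), SAUR12 and SAUR13 lost their calls when single shaded libraries were left out, with adjusted p up to 0.193, 0.0992 and 0.115. For SAUR4 these were WT replicates 2 and 3 and pif7 replicates 1, 2 and 3; for SAUR12 WT replicate 2 and pif7 replicates 2 and 3; for SAUR13 WT replicates 1 and 3 and pif7 replicates 2 and 3.

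**Figure D4:**
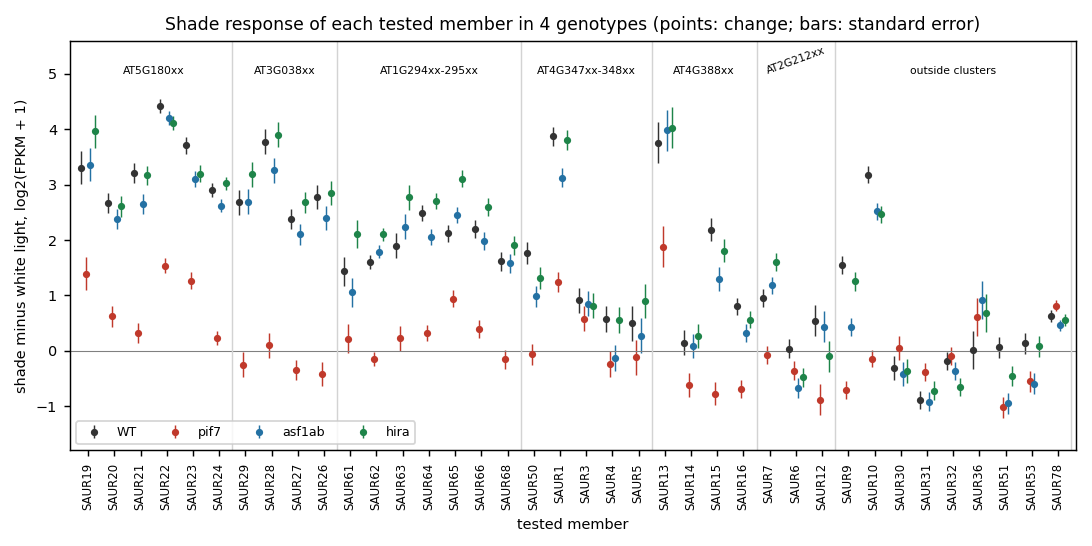
Shade response of each of the 38 tested members (x axis, grouped by cluster) in WT, pif7, asf1ab and hira, as a difference in log2(FPKM + 1) with its standard error. The asf1ab and hira points lie near WT for most members, SAUR9 at 0.43 in asf1ab against 1.55 in WT being a called exception, and pif7 lies lowest in every member of AT5G180xx, AT3G038xx and AT1G294xx-295xx.

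In asf1ab most members also rose with shade. Of 38 tested members 26 rose and 4 fell, with 18.8% of all loci higher and 12.3% lower. The median was 1.44 log2 units, against 0.05 for all loci. Of the 27 members risen in WT and the 26 risen in asf1ab, 25 were shared; SAUR9 and SAUR16 were called in WT alone and SAUR36 in asf1ab alone. Only the response of SAUR9 was called different, and no member had a called larger response, where 0.288% of all loci were lower and 0.173% higher, 0.460% together. The median difference in response of the tested members was -0.25 log2 units, and that of all loci 0.04. By limma, 13 members were lower and 0 higher at an unadjusted p below 0.05, and the share of all loci at that threshold was not computed. All 17 members of AT5G180xx, AT3G038xx and AT1G294xx-295xx rose, and the cluster sums in shade were 422 ± 27.2, 145 ± 19.8 and 427 ± 37.5 FPKM.

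SAUR9 (AT4G36110), whose protein inhibits PP2C.D phosphatases, was the member most reduced in asf1ab. It read 0.36, 0.19 and 0.19 FPKM in white light and 0.43, 0.57 and 1.11 in shade, against 1.82, 2.14 and 1.99 and then 8.38, 7.46 and 7.41 in WT. It was lower than in WT in both lights (-1.26 ± 0.164, adjusted p = 2.03e-05, and -2.38 ± 0.164, adjusted p = 6.09e-09), and these groups did not overlap. The smaller response (-1.12 ± 0.232, adjusted p = 0.0332) was lost when any 1 of 10 of the 12 libraries was left out (adjusted p up to 0.111; it held without asf1ab white-light replicate 3 or shaded replicate 3), at a pseudocount of 0.1 (adjusted p = 0.658) and with the compared groups alone (adjusted p = 0.079). At these levels under 1 FPKM few reads stand behind each value.

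In white light 4 of 38 tested members were higher in asf1ab than in WT and 5 lower, beside 6.26 and 15.8% of all loci (22.1% together), so the members' counts lay near the background. After rescaling by the median of ratios it was 5 higher and 4 lower, and the shares above are from the fit without rescaling. SAUR6 was higher, at 190.2, 199 and 176 FPKM (0.87 ± 0.174, adjusted p = 0.00133), and so was SAUR15, at 7.78, 9.64 and 6.21 (0.84 ± 0.211, adjusted p = 0.00719). SAUR51 (0.71 ± 0.184) and SAUR16 (0.54 ± 0.157) were also higher, but SAUR51 was not called without asf1ab replicate 2 (adjusted p = 0.0625) nor SAUR16 without WT replicate 1 or 3 or asf1ab replicate 2 (adjusted p up to 0.128). Lower were SAUR9, SAUR10 (0.48, 0.14 and 0.43 FPKM), SAUR32, SAUR36 and SAUR65. SAUR36, a gene of leaf senescence, spread from 1.18 to 3.99 FPKM in asf1ab and from 4.28 to 8.36 in WT (-0.98 ± 0.341, adjusted p = 0.0451), and the call was lost without WT replicate 1 or 3 or asf1ab replicate 1 or 2 (adjusted p up to 0.214).

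In shade 1 of 38 tested members was higher and 5 lower in asf1ab than in WT, with 9.13% of all loci higher and 15.8% lower, so the counts did not exceed the background. SAUR10 reached 6.86, 6.27 and 7.01 FPKM, against 16.9 to 18.7 in WT (-1.27 ± 0.153, adjusted p = 6.75e-06), although it rose by 2.52 ± 0.153 within asf1ab. SAUR1 reached 17.8, 19.9 and 17.3 FPKM, against 38.1 to 43.1 in WT (-1.11 ± 0.177, adjusted p = 0.000138). SAUR32, a gene of apical hook maintenance, was lower in both lights (-0.83 ± 0.163 in white light, -1.01 ± 0.163 in shade), at 13.7 ± 1.75 FPKM in shade against 28.7 ± 3.67. SAUR7 was higher (0.67 ± 0.161), and SAUR65 lower (-0.47 ± 0.151, adjusted p = 0.0268), a call lost without WT replicate 1 or 3 or asf1ab replicate 1 or 2 (adjusted p up to 0.0843).

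The members that fell with shade within asf1ab were SAUR31 (-0.92 ± 0.164), SAUR51 (-0.95 ± 0.184), SAUR6 (-0.67 ± 0.174) and SAUR53 (-0.59 ± 0.190). SAUR6 went to 119, 123 and 111 FPKM in shade, close to the shaded WT libraries at 101 to 112 (0.16 ± 0.174, adjusted p = 0.536). Without asf1ab white-light replicate 2 or 3 or shaded replicate 2 or 3, SAUR53 was not called (adjusted p up to 0.0856). The rise of SAUR36 (0.92 ± 0.341, adjusted p = 0.0478) was lost without white-light replicate 1 or 2 or shaded replicate 1 or 3 (adjusted p up to 0.236).

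In hira too most members rose with shade. Of 38 tested members 28 rose and 3 fell, with 26.0% of all loci higher and 9.55% lower. The median was 2.003 log2 units against 0.14 for all loci. After rescaling 26 members rose and 4 fell, and those shares of all loci are from the fit without rescaling. All 27 members risen in WT were among the 28. The added one was SAUR5 (0.90 ± 0.313, adjusted p = 0.031), which lost its call without hira white-light replicate 2 or 3 or shaded replicate 1 or 3 (adjusted p up to 0.187). SAUR3 (0.82 ± 0.230) and SAUR16 (0.56 ± 0.157) lost theirs without white-light replicate 3 (adjusted p = 0.0601 and 0.0512). The sums of AT5G180xx, AT3G038xx and AT1G294xx-295xx in shade were 424 ± 4.97, 147 ± 8.27 and 463 ± 8.25 FPKM.

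**Figure D5:**
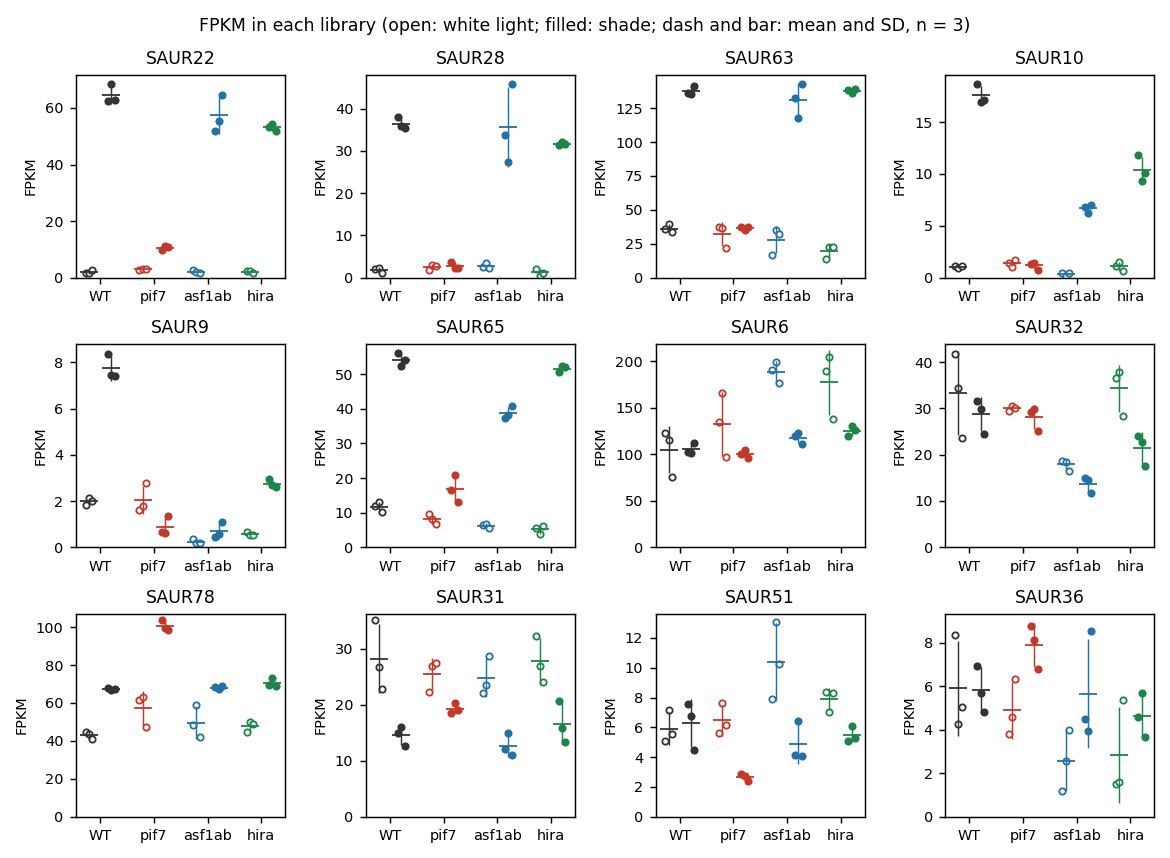
FPKM (y axis, from 0) of 12 members in each library, with white light as open and shade as filled points, and the mean and SD of 3 libraries as a dash and bar. SAUR22, SAUR28 and SAUR63 climb in shade in WT, asf1ab and hira, SAUR9 and SAUR10 end at lower shaded levels in asf1ab and hira than in WT, and SAUR78 is highest in shaded pif7, at 98.3 to 104 FPKM.

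Only SAUR65 differed from WT in its response in hira, where 0.607% of all loci were called higher and 0.685% lower, 1.29% together. By limma, 4 members were higher and 2 lower at an unadjusted p below 0.05, and the share of all loci at that threshold was not computed. SAUR65 (AT1G29460) read 5.63, 3.79 and 6.19 FPKM in white-light hira and 50.7, 52.3 and 52.0 in shade, against 12.0, 13.1 and 10.1 and then 56.1, 52.4 and 54.2 in WT. The groups lay apart in white light (-1.05 ± 0.151, adjusted p = 0.000153) and close together in shade (-0.07 ± 0.151, adjusted p = 0.812). The larger response (0.98 ± 0.214, adjusted p = 0.0283) was lost when any 1 of 9 of the 12 libraries was left out (adjusted p up to 0.0819; it held without WT white-light replicate 3 or hira white-light replicate 1 or 3). It was also lost after rescaling, with the compared groups alone, and without both hira white-light replicates 1 and 2, which leaves 1 library in that group (0.75 ± 0.231), with adjusted p up to 0.235 over these.

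In white light 1 of 38 tested members was higher and 4 lower in hira than in WT, with 2.61 and 9.03% of all loci (11.6% together), so the counts lay near the background. After rescaling it was 1 and 2, and these shares are from the fit without rescaling. SAUR6 was higher at 189, 204 and 138 FPKM (0.76 ± 0.174, adjusted p = 0.00874) and SAUR9 lower at 0.64, 0.55 and 0.53 (-0.92 ± 0.164, adjusted p = 0.00132). SAUR62 (-0.54 ± 0.121), SAUR63 (-0.87 ± 0.224) and SAUR65 were lower, and SAUR63, at 13.7, 22.9 and 22.8 FPKM, lost its call without WT replicate 2 or hira replicate 1 (adjusted p up to 0.125). The median of all loci was -0.12 here, and replicates 1 and 2 of this group carry the most ribosomal and plastid RNA. Leaving out both leaves 1 white-light hira library, which is then assumed to vary like the other groups. In that fit 2 members were called; SAUR9 (-0.96 ± 0.242) and SAUR62 (-0.50 ± 0.178) kept their size without the call, while SAUR6 was at 0.43 ± 0.230 and SAUR63 at -0.64 ± 0.294. The part of the ribosomal and plastid transcripts in the result was not tested.

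In shade 1 of 38 tested members was higher and 2 lower in hira than in WT, with 4.96 and 6.59% of all loci, so the counts did not exceed the background. SAUR9 read 2.94, 2.70 and 2.60 FPKM (-1.22 ± 0.164, adjusted p = 8.47e-05) and SAUR10 11.8, 9.28 and 10.1 (-0.71 ± 0.153, adjusted p = 0.00541), in both cases with every library under those of WT. SAUR7 was higher, at 11.9, 11.0 and 9.30 FPKM (0.73 ± 0.161, adjusted p = 0.00662). The comparisons of asf1ab and of hira with WT share the WT libraries, so likeness between them is no independent evidence: for SAUR9 in shade the values were -2.38 and -1.22, for SAUR10 -1.27 and -0.71, for SAUR7 0.67 and 0.73, and for SAUR6 in white light 0.87 and 0.76.

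Within hira SAUR31 (-0.72 ± 0.164), SAUR32 (-0.66 ± 0.163) and SAUR6 (-0.48 ± 0.174, adjusted p = 0.0384) fell with shade. SAUR6 was lost without white-light replicate 1 or 2 or any 1 of the shaded libraries (adjusted p up to 0.161). With the single white-light hira library left after omitting replicates 1 and 2, the values were -0.53 ± 0.230 for SAUR31, -0.41 ± 0.227 for SAUR32 and -0.14 ± 0.230 for SAUR6, none of them called (adjusted p up to 0.734).

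As a description of size, the response of the 27 risen members in each mutant was divided by that in WT on the log2 scale. The median was 10.1% in pif7, with a range of -86.4 (SAUR16) to 129% (SAUR78), 88.3% in asf1ab (27.9 to 124%) and 103% in hira (70.4 to 168%). In pif7 the range was 8.08 to 42.1% in AT5G180xx, -14.9 to 2.54% in AT3G038xx and -9.51 to 44.4% in AT1G294xx-295xx. Members were chosen by their WT response, which is also the divisor, so these shares carry no test.

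Genes for the partners of SAUR proteins were read in the same fits, where 14.9% of all loci rose and 11.4% fell in WT. Of the 9 PP2C.D phosphatase genes tested 5 rose and 0 fell in WT. AT5G02760 rose by 3.36 ± 0.165, from 16.6 ± 0.316 to 180.0 ± 20.7 FPKM, AT5G66080 by 2.25 ± 0.177, AT3G17090 by 0.93 ± 0.0608 and AT3G55050 by 0.32 ± 0.0754. In pif7 4 rose, where 29.9% of all loci did. The response was smaller than in WT in 2 of the 9, where 2.98% of all loci were called lower. These were AT5G02760, with a difference of -3.60 ± 0.233, and AT3G17090, with -0.65 ± 0.0860. Of the 7 tested genes for plasma membrane proton pumps (AHA family, 11 listed) 1 rose in WT, which is near the share of all loci, HA11 by 0.31 ± 0.0953, while HA1 and HA2 changed by -0.08 and 0.10 and were not called.

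Transcription factors known to act on SAUR promoters, the activating auxin response factors and the brassinosteroid factors BZR1 and BES1, split in WT. Of 7 tested 2 rose, BZR1 by 0.63 ± 0.1004 and ARF19 by 0.54 ± 0.104, and 3 fell, ARF8 by -0.57 ± 0.0601, BES1 by -0.50 ± 0.105 and ARF6 by -0.32 ± 0.1005, beside 14.9 and 11.4% of all loci. Among the 16 tested SAUR genes not on the list, the 4 that rose and 3 that fell in WT stand beside 14.9 and 11.4% of all loci. AT1G29490, which lies inside AT1G294xx-295xx, rose by 2.93 ± 0.215 and SAUR46 by 2.53 ± 0.233, and their responses were smaller in pif7 by -2.73 ± 0.305 and -2.17 ± 0.330. SAUR60 fell by -1.36 ± 0.164 and SAUR59 by -1.01 ± 0.166.

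The 7 members under the minimum of 1 FPKM were SAUR2, SAUR8, SAUR25, SAUR52, SAUR54, SAUR75 and SAUR76. SAUR54 read 1.51, 0.97 and 1.04 FPKM in white-light WT and 0.31, 0.32 and 0.30 in shade. In a fit without the minimum (26975 loci) it fell in WT by -0.72 ± 0.154 (adjusted p = 0.00231), in asf1ab by -0.62 ± 0.154 and in hira by -0.51 ± 0.154, and changed by 0.08 ± 0.154 in pif7, where it read 0.99, 1.06 and 0.34 and then 0.80, 0.80 and 1.01. The difference between these responses was 0.80 ± 0.218 (adjusted p = 0.0473). SAUR75 was listed at 0 in all white-light WT libraries and at 0.24, 0.37 and 0.34 FPKM in shade, and its coding bases are nearly those of the far more abundant SAUR62. SAUR8 read 0.28 to 1.83 FPKM over the 24 libraries, SAUR52 0.06 to 0.85, SAUR76 0 to 2.69 and SAUR25 0 to 0.14, with 19 libraries of SAUR25 at 0. Such levels stand for few reads per library.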

How the data were processed

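The FPKM values of 33020 loci in 24 libraries are the authors' own, as deposited; the submitters' processing notes name FastQC, cutadapt, STAR, HTSeq, DESeq2 and the TAIR10 build, without versions, and neither the derivation of FPKM nor the use of strand in counting is stated there. No column of another sample was in the table. Deposited FPKM were converted here to log2 values with a pseudocount of 1, and loci with a mean of at least 1 FPKM (19126) were tested with limma 3.58.1 in R 4.3.3, with 8 group means, a variance trend and Benjamini-Hochberg adjustment over all tested loci at 0.05. The 6045 loci at 0 in every library could not enter any fit. Tables and figures used Python 3.11.15, pandas 2.3.3, numpy 2.4.6, matplotlib 3.10.9 and Biopython 1.88. Gene names, overlaps and sequences came from the RefSeq TAIR10.1 genome and annotation.

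The members and gene lists were chosen with earlier results of these data known. Values per library were given for the highest and most changed member of each cluster, for SAUR31 and for members with the largest called differences of each mutant; genes beside clusters and other values were added after values were seen. On simulated data with known changes in the WT comparison, 42, 76, 94 and 100% of genes changed by 0.5, 1, 2 and 3 log2 units were recovered, and 10 unchanged genes of 19126 loci were called. Only 200 genes were changed there, while 5043 loci (26.4%) were called in the real WT comparison. The adjusted p depends on the share of changed genes, so these rates describe the simulated setting alone. Alternatives were another scaling, pseudocounts of 0.1 and 5, a minimum of 5 FPKM or none, no variance trend, the compared groups alone, the replicate number as a block, and each library left out; leaving out both white-light hira replicates 1 and 2 was chosen after seeing the data. FPKM give no counts, so no counting intervals were computed.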

Additional observations from a re-analysis of the deposited data

Results flagged for a closer look

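The members below had a shade response that differed between a mutant and WT by the limma test of the difference itself, with Benjamini-Hochberg adjusted p below 0.05; values are differences in log2(FPKM + 1). In pif7 the response, as a signed value, was lower in 26 members. In AT3G038xx the differences were -3.68 for SAUR28, -3.19 for SAUR26, -2.94 for SAUR29 and -2.73 for SAUR27. In AT5G180xx they were -2.88 for SAUR21, -2.88 for SAUR22, -2.67 for SAUR24, -2.44 for SAUR23, -2.05 for SAUR20 and -1.92 for SAUR19. In AT1G294xx-295xx they were -2.17 for SAUR64, -1.81 for SAUR66, -1.77 for SAUR68, -1.76 for SAUR62, -1.67 for SAUR63 and -1.18 for SAUR65.

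In the other clusters the differences in pif7 were -2.96 for SAUR15, -2.63 for SAUR1, -1.88 for SAUR13, -1.84 for SAUR50, -1.5 for SAUR16, -1.43 for SAUR12 and -1.03 for SAUR7, and among single genes -3.32 for SAUR10, -2.26 for SAUR9 and -1.08 for SAUR51. In asf1ab the difference was -1.12 for SAUR9, and in hira 0.98 for SAUR65.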

How the results depend on the processing

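Of 2762 values of the 185 called member changes under the alternatives, 2609 kept their direction and call, 153 were no longer called and 0 reversed; 32 of the 185 changes lost their call under at least 1 alternative. The counts of members called either way moved by over 1.5 times in the cases below. At a minimum of 5 FPKM, members under it left the fit, and all 152 called changes still tested kept their call. The cause of the other moves was not tested. For the difference of asf1ab from WT in response, 1 member became 0 at a pseudocount of 0.1, at a minimum of 5 FPKM and with the compared groups alone, and 3 at a pseudocount of 5. For that of hira, 1 became 0 after rescaling, with the compared groups alone and without white-light hira replicates 1 and 2, 2 with no minimum and 3 at a pseudocount of 5. In white light, 9 in asf1ab became 5 with the compared groups alone, and 5 in hira became 3 after rescaling, 1 with the compared groups alone and 2 without the pair of replicates, a fit that leaves 1 library in that group. In shaded hira, 3 became 6 at a pseudocount of 5, 1 at a minimum of 5 FPKM and 7 with the compared groups alone.

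Leaving out single libraries gave 28 to 28 members called in WT shade, 13 to 17 in pif7, 29 to 30 in asf1ab and 29 to 30 in hira; 23 to 28, 0 to 2 and 0 to 2 for the differences in response of pif7, asf1ab and hira; 0 to 1, 6 to 12 and 4 to 8 against WT in white light; and 26 to 29, 5 to 7 and 3 to 3 in shade. Deviations of same-numbered libraries from their group means correlated at -0.114 to 0.221, in no comparison all above 0.1. The replicate numbers were therefore not taken as pairs. With the replicate number as a block, the counts in the same order were 28, 17, 32, 32, 27, 1, 1, 0, 10, 6, 31, 6 and 4. Rescaling took the median of all loci in the hira response from 0.14 to 0.00, and low FPKM limit the members near 0.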
